A study of Mus musculus with 12 samples.

Results

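The genes described here encode the mitochondrial respiratory chain and its adenosine triphosphate (ATP) synthase. They were taken as the protein-coding rows of a gene count table whose mouse symbols start with Nduf, Uqcr, Atp5, Cox and a digit, mt-Nd, mt-Co, mt-Cytb or mt-Atp, or are Sdha, Sdhb, Sdhc, Sdhd or Cycs. The symbol rule matched 130 rows, of which 14 were not protein-coding and were left out, so that 116 genes of 52634 remained. Of these, 103 are encoded in the nucleus and 13 in mitochondrial DNA. The nuclear genes comprise 76 structural subunits, 8 second isoforms of a subunit and 19 assembly factors, which build a complex without staying in it. Genes of the pathway whose symbols the rule does not take, such as Atpif1, an inhibitor of ATP synthase, are not counted among them.

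The RNA came from the dorsal hippocampus of mouse pups at postnatal day 7. Control pups carried SERTfl/fl, a floxed serotonin transporter gene, and the other pups have the genotype label SERTPyramid (the sample titles read SERTfl/fll and SERTPyramid∆); the series title places the transporter's expression in CA3 pyramidal neurons, and the labels name no Cre line. Each genotype was split by labelled sex into 2 groups, each of the 4 groups had 3 libraries, and each library pooled tissue from 4 mice. Levels are given as counts per 1000000 counts of the library (CPM), and levels of different members are ranked as CPM per kilobase of merged exon. A gene was called changed at an adjusted p under 0.05 in edgeR's quasi-likelihood test.

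The respiratory chain passes electrons from NADH through complex I, or from succinate through complex II, to complex III, cytochrome c and complex IV, and complex V uses the proton gradient so formed to make ATP. Complexes I, III, IV and V are mosaics of subunits from both genomes, while complex II and cytochrome c are wholly nuclear. Mitochondrial genes are transcribed as long polycistronic RNAs, one from each strand, and cut into messengers, whereas each nuclear gene has its own promoter. In the brain the chain supplies most of the ATP that neurons spend on ion pumping and synaptic signalling.

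Library totals ran from 18747249 to 25522347 counts, so that 3 counts, the upper limit that a count of 0 allows, correspond to 0.118 to 0.160 CPM. That limit covers counting error only. Slc6a4, the gene of the serotonin transporter, gave 0 to 17 counts per library, with 5, 16, 9, 0, 17 and 12 in the control libraries and 12, 3, 1, 8, 3 and 7 in the SERTPyramid libraries, and the genotypes overlapped. Transcripts of Xist and the Y chromosome fitted the sex on the label in replicate 1 of both control groups and contradicted it in the other 10 libraries. The sexes are therefore called labelled female and labelled male throughout. Each control group thus held libraries of both apparent sexes, while the libraries of each SERTPyramid group shared the same apparent sex. Within a labelled sex, genotype is therefore partly confounded with apparent sex. Labelled-female control replicate 3 had 527 Xist counts beside 2849 Y-linked counts, against 13 to 59 Xist counts in the other Y-positive libraries. Leaving out replicate 1 of both control groups gave 0 called genes among the members. The 8 pyramidal neuron markers summed to 2261 to 2594 CPM over the libraries, and Slc17a7 among them had a mean of 1184 CPM. The 4 dentate granule neuron markers summed to 249 to 344 CPM, and Prox1 among them had a mean of 208 CPM. The summed level of 15 choroid plexus markers varied from 1123 to 1485 CPM in labelled-female controls, from 78.6 to 1444 in labelled-female SERTPyramid libraries, from 1375 to 2057 in labelled-male controls and from 566 to 2828 in labelled-male SERTPyramid libraries.

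Of the 13 mitochondrial genes, 7 were abundant and 6 were counted near the floor of the measurement, a division made after the values were seen and therefore not tested. The mitochondrial stretch below is shown because such identity accompanied most of the low values. It gives the first 70 bases of mt-Co2, which encodes subunit 2 of complex IV (GRCm38 chrM:7013-7082, coding sequence), beside the same stretch of 2 annotated nuclear pseudogenes, Gm28661 on chromosome 1 and Gm13341 on chromosome 2. The sequences come from the GENCODE transcripts, and capitals mark bases that differ from mt-Co2.
mt-Co2: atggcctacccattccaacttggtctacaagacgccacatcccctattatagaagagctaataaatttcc
Gm28661: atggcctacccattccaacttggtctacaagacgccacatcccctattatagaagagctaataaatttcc
Gm13341: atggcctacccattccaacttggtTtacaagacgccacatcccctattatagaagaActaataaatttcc
Gm28661 had 0 differences from mt-Co2 over these 70 bases and 0 mismatches over all 681 bases of its annotated transcript. Gm13341 had 2 differences in the stretch, C25T and G57A, counted from the first base of mt-Co2 with the mt-Co2 base first, and an identity of 97.6% over 672 aligned bases.

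Among the abundant mitochondrial genes, mt-Cytb, the catalytic cytochrome b of complex III, had the highest level per length, with a mean of 4176 CPM per kilobase. It was followed by mt-Co1, the oxygen-reducing subunit of complex IV, at 3546, and by mt-Nd1 at 3431, mt-Nd2 at 1933, mt-Nd6 at 1360, mt-Nd5 at 1313 and mt-Nd4 at 999.6 CPM per kilobase, all membrane subunits of complex I. mt-Nd6 is the sole member on the other mitochondrial strand (chrM:13552-14070), the library kit does not mark strand, and reads from the opposite strand of that stretch cannot be told apart from its own. The other 6 genes lay far lower: mt-Atp8, a small subunit of complex V, had 35.7 CPM per kilobase, mt-Co2 had 9.91, mt-Co3 of complex IV 7.92, mt-Atp6, the proton channel of complex V, 7.43, mt-Nd4l of complex I 3.42 and mt-Nd3 of complex I 2.08.

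mt-Co1 and mt-Co2 are parts of one catalytic core, yet the level of mt-Co1 per kilobase was 358-fold that of mt-Co2. In CPM, mt-Co1 had 5755, 5130 and 5591 in the labelled-female controls, 5396, 5281 and 5442 in labelled-female SERTPyramid, 5525, 5560 and 5783 in the labelled-male controls and 5846, 5568 and 4872 in labelled-male SERTPyramid libraries. mt-Co2, in the same order, had 8.34, 5.49 and 6.31, then 6.31, 6.46 and 6.35, then 6.83, 6.11 and 8.04, and last 6.79, 6.71 and 7.63 CPM. The gap was present in every library and the groups of each gene overlapped. The 7 abundant genes held at least 99.8% of the mitochondrial counts in every library.

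Sequence shared with nuclear copies followed the low counts for 5 of these 6 genes. Of all windows of 50 bases in the transcript, the share found exactly in the transcript of another gene was 100% for mt-Co2, 99.9% for mt-Co3, 99.5% for mt-Atp6, 98.8% for mt-Nd4l and 98.0% for mt-Nd3. It was 62.2% for mt-Nd4, 51.1% for mt-Co1, 8.19% for mt-Nd2 and 7.61% for mt-Nd5, and 0% for mt-Cytb, mt-Nd1 and mt-Nd6. mt-Atp8 did not follow this order, with 0% shared windows and a low count. The search covered annotated transcripts only, so a copy without an annotated gene would not be found. mt-Atp8 (chrM:7766-7969) begins between mt-Co2 and mt-Atp6. The chromosome 1 copies of these neighbours, Gm28661 (24614885-24615565) and Gm10925 (24613974-24614651), are annotated, and the bases between them were not searched. The transcript of mt-Atp8 is the shortest of the 13, at 204 bases, and 21.1% of it overlaps mt-Atp6. The copies, whose transcripts are within 3 bases of the genes' length, were also counted at low levels: Gm28661 had a mean of 6.45 CPM beside 6.78 for mt-Co2, Gm28437 had 8.47 beside 6.21 for mt-Co3, Gm10222 had 1.21 beside 1.02 for mt-Nd4l, Gm28438 had 0.682 beside 0.726 for mt-Nd3, and Gm10925 had 11.3 beside 5.06 for mt-Atp6. The treatment of reads with several equally good positions is not stated in the labels or the table, and its part in the low values was not tested. The values of these 5 genes are therefore uncertain as levels of mitochondrial RNA. With 51.1% and 62.2% of their windows shared, mt-Co1 and mt-Nd4 are uncertain in the same way, and so is their place in the order per length. The low value of mt-Atp8 is uncertain as well, because the search could not find a copy without an annotated gene.

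**Figure D1:**
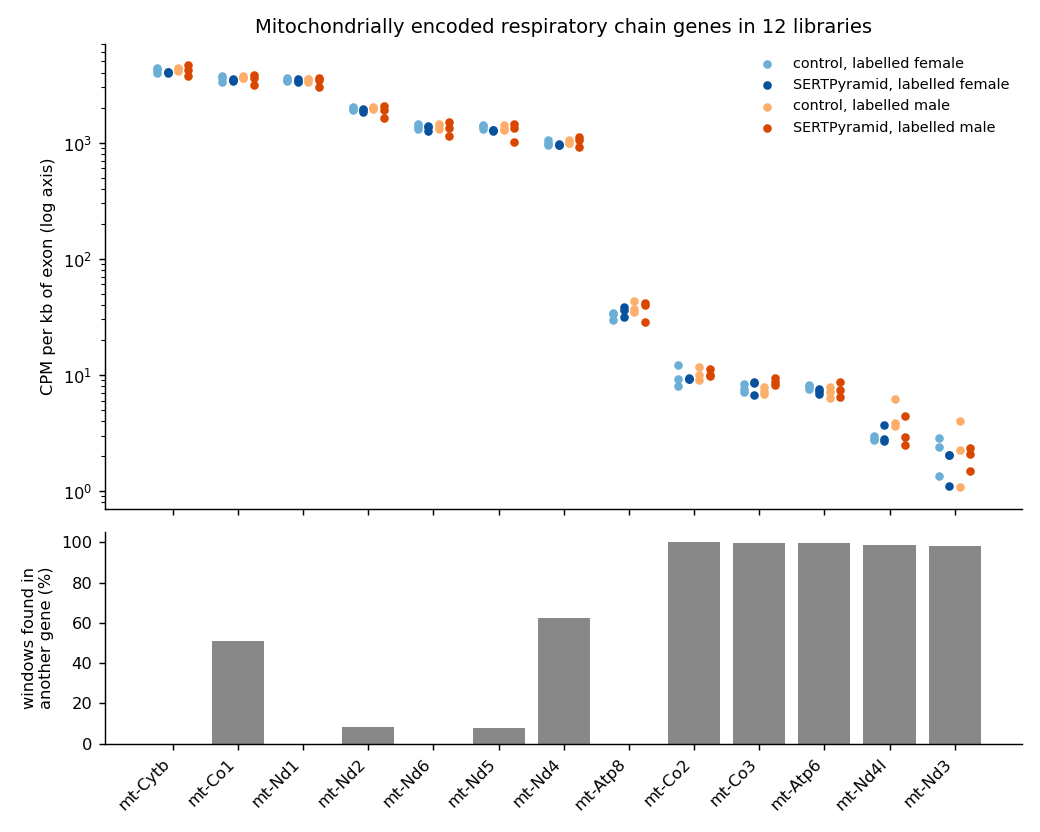
Upper plot, the level of each mitochondrially encoded gene in CPM per kilobase of exon on a log axis, 1 point per library, coloured by group; lower plot, the percent of 50-base windows of each transcript found exactly in another gene's transcript. The 7 genes on the left have means of at least 999.6 CPM per kilobase, the 6 on the right at most 35.7, and 5 of those 6 have at least 98.0% of their windows in another gene.

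Nuclear members were measured at levels that differed by complex and by kind of gene. Of the 76 structural subunits, 74 had a mean above 5 CPM, and the median of the 76 was 40.7 CPM per kilobase. The filter on low counts passed 110 of the 116 members, all 13 mitochondrial and 97 nuclear ones. The 6 left out were the subunits Ndufs3 and Uqcrc1, the assembly factor Cox20 and the isoforms Cox7b2, Cox8b and Cox8c.

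Complex I oxidises NADH. Its order per length, over 43 nuclear members that passed, was led by Ndufc2 with a mean of 85.5 CPM per kilobase and Ndufa1 with 85.2, both accessory subunits, whose libraries overlapped. It ended with Ndufb2, an accessory subunit, at 2.79, and Ndufab1, the mitochondrial acyl carrier protein, at 1.97. Of the 42 pairs of neighbours in this order, 37 overlapped between libraries, so most neighbouring ranks cannot be separated. The merged exons of Ndufab1 and Ndufb2 are long, at 6883 and 5628 bases over all annotated transcripts, against 754 for Ndufc2 and 419 for Ndufa1, and the part of this length in their rank was not tested.

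Complex II oxidises succinate and anchors the citrate cycle to the chain. Its 4 subunits did not overlap with each other in any pair of neighbours. Sdhd, a membrane anchor, had 68.5 CPM per kilobase, Sdha, the flavin subunit, 51.6, Sdhb, the iron-sulfur subunit, 46.7, and Sdhc, the other anchor, 22.8. Sdha spanned 206 to 221 CPM over the 12 libraries, with a median of 213, and the sum of the 4 genes spanned 463 to 489 CPM.

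Complex III hands electrons to cytochrome c. Uqcr10, a small accessory subunit, had the highest level at 104.6 CPM per kilobase and Uqcrfs1, the Rieske iron-sulfur protein, the next at 81.7. Uqcrq at 50.2 and Uqcrb at 19.2, both small subunits, were lowest among the 7 that passed. Of the windows of Uqcrb, 25.4% occur in another gene, against 0% for Uqcrq. Uqcrc1, a core subunit, gave 2 to 9 counts per library although no annotated exon overlaps it and none of its windows occurs in another gene. Uqcrc2, the other core subunit, had a mean of 129 CPM. Cycs, which encodes the soluble carrier cytochrome c, had 5.05 CPM per kilobase and a range of 15.3 to 20.03 CPM. Its merged exons span 3404 bases, and 26.1% of its windows occur in another gene. The part of shared windows and length in the levels of Uqcrb and Cycs was not tested.

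Complex IV reduces oxygen. Cox6a1 had the highest level of the nuclear members that passed, at 429 CPM per kilobase, followed in its complex by Cox8a at 256, both accessory subunits. The copper chaperone Cox17 at 0.540 and the assembly factor Cox16 at 0.800 were lowest; 56.8% of the exon length of Cox16 overlaps Gm20498, so that their reads may be shared.

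Second isoforms in complex IV, several of them known from heart, skeletal muscle, lung or testis, were low in every library. Cox4i1 exceeded Cox4i2 87.7-fold per kilobase, with single libraries from 61.4-fold to 169-fold. The ratio was 226-fold for Cox6a1 over Cox6a2, 149.6-fold for Cox6b1 over Cox6b2, 55.2-fold for Cox7a2 over Cox7a1 and 26.5-fold for Ndufa4 over Ndufa4l2. Cox7b had a mean of 55.2 CPM per kilobase and Cox7b2 0.104, with 0 to 0.175 CPM in single libraries. Cox8a had 256 CPM per kilobase and Cox8b 0.049, and Cox8c had 0 counts in every library. Cox7a2l, which helps join complexes III and IV, had 44.2 CPM. The 6 cardiac and skeletal muscle markers summed to 3.60 to 4.76 CPM in labelled-female controls and 6.18 to 8.31 in labelled-female SERTPyramid libraries, which did not overlap, and to 4.97 to 6.83 and 4.90 to 5.98 CPM in the labelled-male groups. Of the 4 markers tested, 3 were higher at an unadjusted p under 0.05 in edgeR's test among labelled-female libraries. Of all genes, 8.04% passed that threshold in either direction. After adjustment 0 of the markers were called, and their median log2 fold change was 0.63. The part of muscle RNA in the isoform values was not tested.

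Complex V makes ATP. Its catalytic core led: Atp5a1, the alpha subunit, had 274 CPM per kilobase, and Atp5b, the beta subunit, 239. Atp5b was also among the steadiest members, with 989 to 1048 CPM and a coefficient of variation of 1.49%. Atp5s, a factor that couples parts of the enzyme, and Atp5l, subunit g of the membrane part, were lowest at 4.73 and 1.49 CPM per kilobase; the merged exons of Atp5l span 6443 bases. Subunit c of the rotor is encoded by 3 genes for one mature protein, and Atp5g3 exceeded Atp5g1 14.1-fold and Atp5g2 10.4-fold per kilobase. In CPM their means were 280 for Atp5g3, 44.6 for Atp5g1 and 20.7 for Atp5g2, with merged exons of 2181, 4912 and 1675 bases. Of their windows, 0%, 11.1% and 36.7% occur in another gene. The part of exon length and shared windows in these ratios was not tested. Atpif1, outside the symbol rule, had 61.8 to 71.7 CPM.

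**Figure D2:**
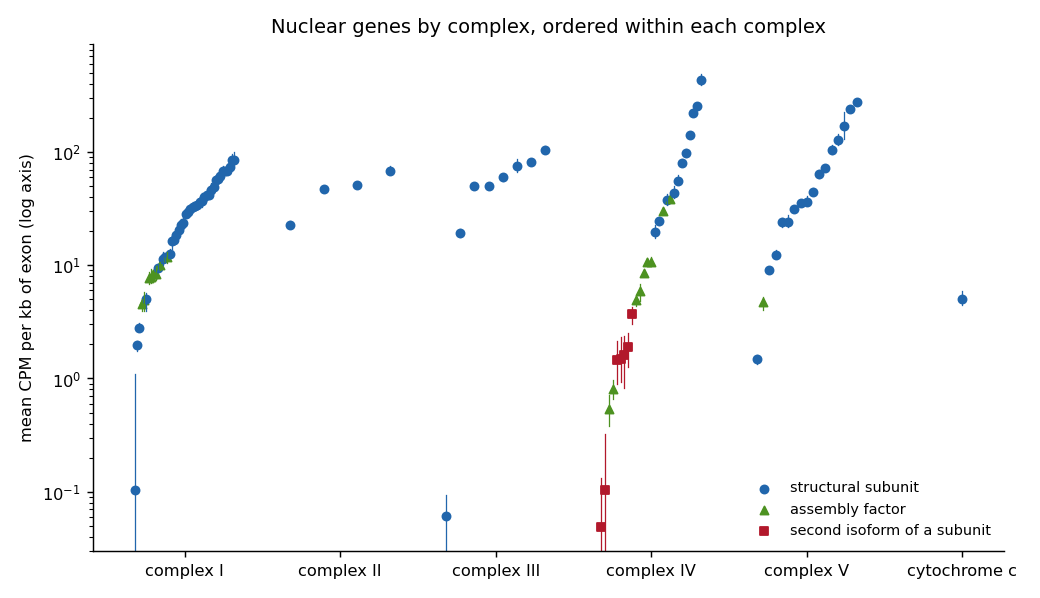
Mean level of each nuclear gene in CPM per kilobase of exon on a log axis, by complex and ordered within it; marker shape gives the kind of gene and each whisker spans the lowest to the highest of 12 libraries, cut at the lower edge of the plot. Cox6a1 is highest at 429, the second isoforms lie at or below 3.67, and Cox20 and Cox8c, at 0 in every library, are not drawn.

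A few nuclear members stood apart from their complex. Ndufs3, a core subunit of complex I, had 55 counts in replicate 1 of the labelled-female controls and 0 to 3 in each other library. Of its windows, 16.1% occur in another gene. The pseudogene Gm12251, which shares 354 windows with it, had a mean of 5.297 CPM beside 0.225 for Ndufs3. The part of these shared windows in the low counts of Ndufs3 was not tested. Cox20 had 0 counts in every library, and 91.1% of its exon length overlaps Hnrnpu; the part of this overlap in its count was not tested. Atp5d, the delta subunit of complex V, varied most among nuclear members with a mean above 5 CPM: it had 304, 348 and 293 CPM in labelled-female controls, 294, 253 and 312 in labelled-female SERTPyramid, 358, 282 and 343 in labelled-male controls and 305, 386 and 432 in labelled-male SERTPyramid libraries. Its coefficient of variation was 15.3%, and the groups overlapped. Of the 92 structural subunits and assembly factors that passed the filter, 90 had a highest library less than 1.5-fold above the lowest, with a median ratio of 1.18.

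The promoters of nuclear members held letters of known binding motifs more often than promoters in general, which is given here as a description. RefSeq promoters (GRCm38.p6, from 250 bases before to 50 bases after the start) were found for 84 of the 103 nuclear members, in 90 windows. Searched on both strands, GCGC, then any base, then TGCGC, the core of the motif of nuclear respiratory factor NRF1, occurred in 20 windows, or 22.2%, against 6.38% of 21263 windows of all protein-coding genes. CCGGAAG, the core of the ETS motif bound by GABP, occurred in 26.7% against 11.6%, and AAGATGGCG, the core of the YY1 motif, in 10% against 1.83%. ETS and YY1 letters overlapped in 0 windows of the members. GC content was 58.2% in the members' windows and 56.2% in all windows, and the members held 20.8 CpG dinucleotides per window against 15.4.

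Stretches before the start of 5 members show these letters where they lie near genes described here: the 2 complex II genes with NRF1 letters, the most abundant nuclear gene of complex IV per length, and 2 complex I genes with small unadjusted p-values below. Capitals mark the match, found on either strand and written in the gene's direction. They lie at chr13:74350304-74350363 (minus strand) for Sdha, chr9:50603894-50603953 (minus) for Sdhd, chr5:115349086-115349145 (minus) for Cox6a1, chr16:37654525-37654584 (minus) for Ndufb4 and chr2:119662835-119662877 (minus) for Ndufaf1.
Sdha, NRF1: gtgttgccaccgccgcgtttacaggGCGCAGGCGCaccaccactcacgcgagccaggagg
Sdhd, NRF1: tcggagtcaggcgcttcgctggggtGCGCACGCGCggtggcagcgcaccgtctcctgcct
Cox6a1, NRF1: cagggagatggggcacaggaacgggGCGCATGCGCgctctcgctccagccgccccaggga
Ndufb4, NRF1: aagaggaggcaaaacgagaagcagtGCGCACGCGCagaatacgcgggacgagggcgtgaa
Ndufaf1, ETS: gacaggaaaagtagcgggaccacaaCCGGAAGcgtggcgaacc
The motif began 98 bases before the start for Sdha, 79 for Sdhd, 162 for Cox6a1, 191 for Ndufb4 and 18 for Ndufaf1.

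Summed over genes, and without regard to their length, mitochondrial counts exceeded nuclear respiratory chain counts in every library. The 13 mitochondrial genes summed to 20822, 19347 and 20706 CPM in labelled-female controls and to 19300, 19528 and 19958 in labelled-female SERTPyramid libraries. They summed to 20319, 20038 and 21108 CPM in labelled-male controls and to 21755, 20321 and 17414 in labelled-male SERTPyramid libraries. Both the highest and the lowest of the 12 sums were thus in the labelled-male SERTPyramid group, and the genotypes overlapped within each labelled sex.

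The 103 nuclear genes summed to 7884 ± 165 CPM (SD, n = 3) in labelled-female controls and 7917 ± 86.3 in labelled-female SERTPyramid libraries. They summed to 7954 ± 291 CPM in labelled-male controls and 8141 ± 382 in labelled-male SERTPyramid libraries. The ratio of the mitochondrial to the nuclear sum ranged from 2.04 to 2.79, with both ends again in the labelled-male SERTPyramid group. At least 99.8% of the mitochondrial sum lay on the 7 abundant genes. Genes with much shared sequence, mt-Co1 and mt-Nd4 among them, are uncertain as described above. The ratio is therefore one of counts, not a measured ratio of RNA from the 2 genomes. In bulk tissue, fewer cells of a type and less RNA per cell cannot be told apart in any of these values.

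The differences between genotypes in these sums were small beside the spread of replicates, except for mitochondrial RNA in the labelled-female libraries. There the SERTPyramid mean was lower by 696.6 CPM (difference -696.6, pooled SD 626), or -0.101 in the ratio with a pooled SD of 0.111, and the libraries of both genotypes overlapped. Leaving out single libraries moved the difference between -1169 and -431.4 CPM. Some markers of other cells also differed between these groups. Summed levels of 4 dentate granule neuron genes were 281 to 344 CPM in labelled-female controls and 249 to 274 in SERTPyramid libraries. Those of 6 red blood cell genes were 58.8 to 67.9 and 44.3 to 56.4 CPM, both lists without overlap. The muscle markers above did not overlap either, in the other direction. Pyramidal neuron markers (2360 to 2594 and 2312 to 2450 CPM), endothelium markers (336 to 346 and 300 to 337) and the choroid plexus markers overlapped. Of all single genes tested, 9.38% were lower without overlap. At an unadjusted p under 0.05 in edgeR's test, 3 of the 4 granule neuron genes and 2 of the 6 red blood cell genes were lower. Of all genes, 8.04% passed that threshold in either direction, and 0 were called after adjustment. The part of these cells in the mitochondrial and nuclear values was not tested. In labelled-male libraries the mitochondrial difference was -658.5 CPM with a pooled SD of 1613, and without SERTPyramid replicate 3 it was 549.8 CPM. The nuclear differences were 32.7 CPM (pooled SD 131) and 186.6 CPM (pooled SD 339), and the latter was -16.4 CPM without SERTPyramid male replicate 3. No p is given for the sums, since an exact permutation test of 3 libraries against 3 cannot go below 0.1.

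**Figure D3:**
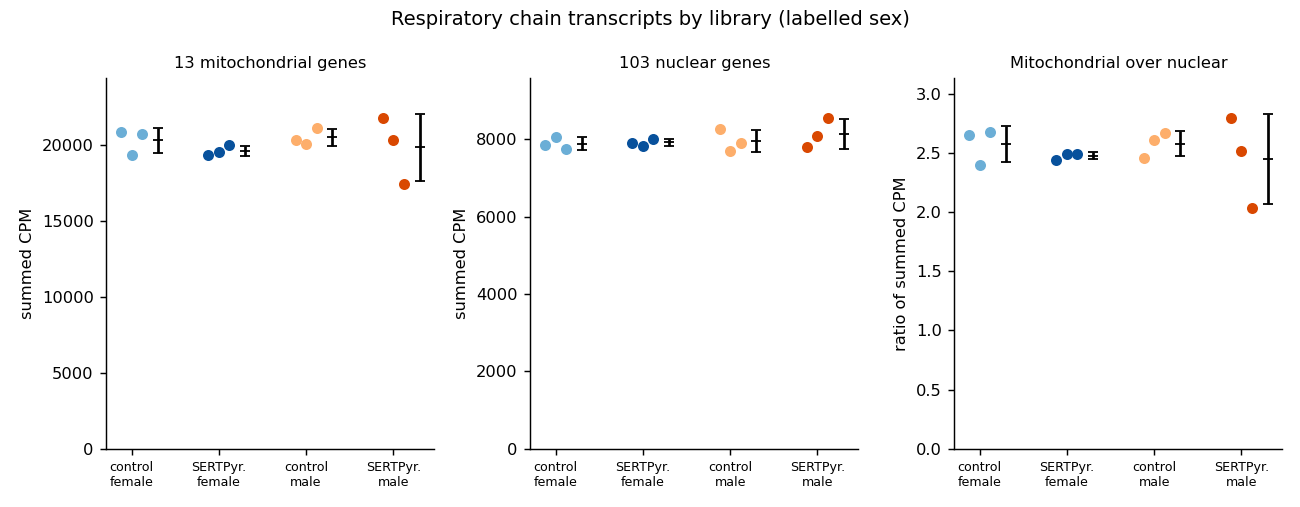
Summed CPM of the 13 mitochondrial genes, of the 103 nuclear genes, and their ratio, in each of 12 libraries by genotype and labelled sex; points are libraries and the bar beside them is the mean ± SD (n = 3). The groups overlap in all 3 plots, and labelled-male SERTPyramid libraries span the whole mitochondrial range, 17414 to 21755 CPM.

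One library stood apart for these genes. SERTPyramid male replicate 3 had the lowest mitochondrial sum and the highest nuclear sum of the 12, and it was the lowest library for each of the 7 abundant mitochondrial genes. On the scale of TMM-normalised counts it was the highest library for 37 of the 97 nuclear members that passed, or 38.1%, against 11.6% of all 17631 genes tested. The median nuclear member lay 0.08 above its mean over the 12 libraries there on the log2 scale, and the median abundant mitochondrial gene lay 0.23 below its own (-0.23).

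Short genes of other functions deviated in the same direction as the nuclear members in the libraries where those were highest and lowest. The median of 832 other protein-coding genes with under 1500 bases of exon lay 0.09 above the 12-library mean in SERTPyramid male replicate 3, against 0.05 for 5335 genes of 1500 to 4000 bases, the range that holds the nuclear members' median of 1718 bases, and -0.03 for 8344 genes of 4000 bases or more. In control male replicate 2, the library with the lowest nuclear sum, the median was -0.06 for nuclear members, -0.05 for the short genes and -0.02 for those of 1500 to 4000 bases. In control male replicate 1 the 3 medians were 0.04, 0.06 and 0.03. The part of gene length in the nuclear values was not tested. In SERTPyramid male replicate 1, which had the highest mitochondrial sum, the choroid plexus markers also had their highest sum, 2828 CPM. In SERTPyramid female replicate 3, where those markers were lowest at 78.6 CPM, the mitochondrial sum of 19958 CPM was inside the range of the others. The part of choroid plexus RNA in the mitochondrial values was not tested.

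**Figure D4:**
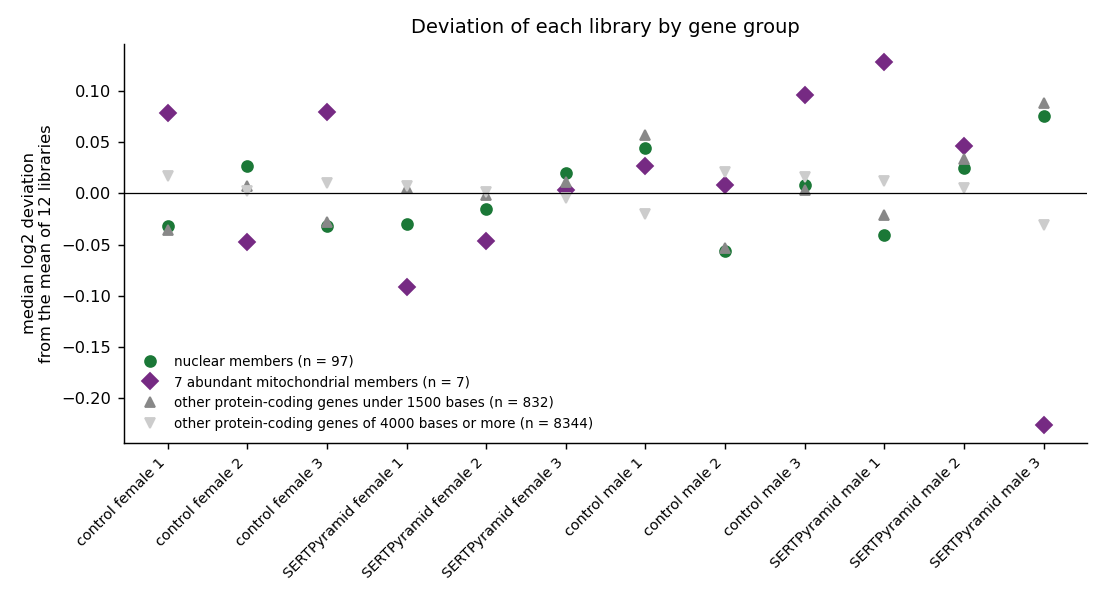
Median log2 deviation of 4 gene groups from their mean over 12 libraries, 1 point per group and library. SERTPyramid male replicate 3 is at 0.08 for nuclear members and 0.09 for other short genes, and at -0.23 for the 7 abundant mitochondrial genes.

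No member was called changed between genotypes. Among labelled-female libraries, edgeR called 0 of the 110 tested members and 0 of 17631 genes (0% of all), and 2 members had an unadjusted p under 0.05 against 8.04% of all genes. Among labelled-male libraries it called 0 members and 0 genes (0%), with 3 members under the unadjusted threshold against 3.16% of all genes. Averaged over labelled sexes the counts were 0 members and 0 genes (0%), with 6 members under the unadjusted threshold against 6.49% of all genes. For the interaction of genotype with labelled sex they were 0 and 0 (0%), with 2 members against 4.45%. DESeq2 called 1, 0, 0 and 1 genes in these 4 comparisons, none of them a member, and limma voom called 0 genes in each. Over 23 settings and 86 fits, 0 called a member, including a fit restricted to the 6 labelled-female libraries, which called 415 genes (2.43% of those tested).

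The precision was enough to bound most of the nuclear differences, given the spread between these pools, which may be technical. The 95% interval of the fold change lay within 1.25-fold in either direction for 92 of 110 members among labelled-female libraries, for 94 among labelled-male libraries and for 101 when averaged. Of the 13 mitochondrial genes it did so for 7 in each labelled sex and for 10 when averaged. For the 4 complex II genes the averaged log2 fold changes were -0.01 for Sdha, 0.01 for Sdhb, 0.03 for Sdhc and 0.02 for Sdhd, each with an SE of 0.03 or 0.04. The medians over nuclear members were 0.0012 and 0.03 among labelled-female and labelled-male libraries, beside -0.00038 and 0.0016 for all genes. The medians over the 13 mitochondrial genes were -0.06 in both, with a spread of the same median between replicates of 0.10 (SD). That SD is a single value for all 4 groups, which differed in spread. The median deviation of the 7 abundant genes was 0.13, 0.05 and -0.23 in the labelled-male SERTPyramid libraries. It was 0.08, -0.05 and 0.08 in labelled-female controls and -0.09, -0.05 and 0.003 in labelled-female SERTPyramid libraries. All 7 abundant mitochondrial genes had a fold change below 0 among labelled-female libraries and 6 of 7 among labelled-male libraries, and none passed the test. These genes come from the same libraries and, except for mt-Nd6, from the same strand, so they are not independent. Without SERTPyramid male replicate 3 the labelled-male mitochondrial median was 0.03.

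**Figure D5:**
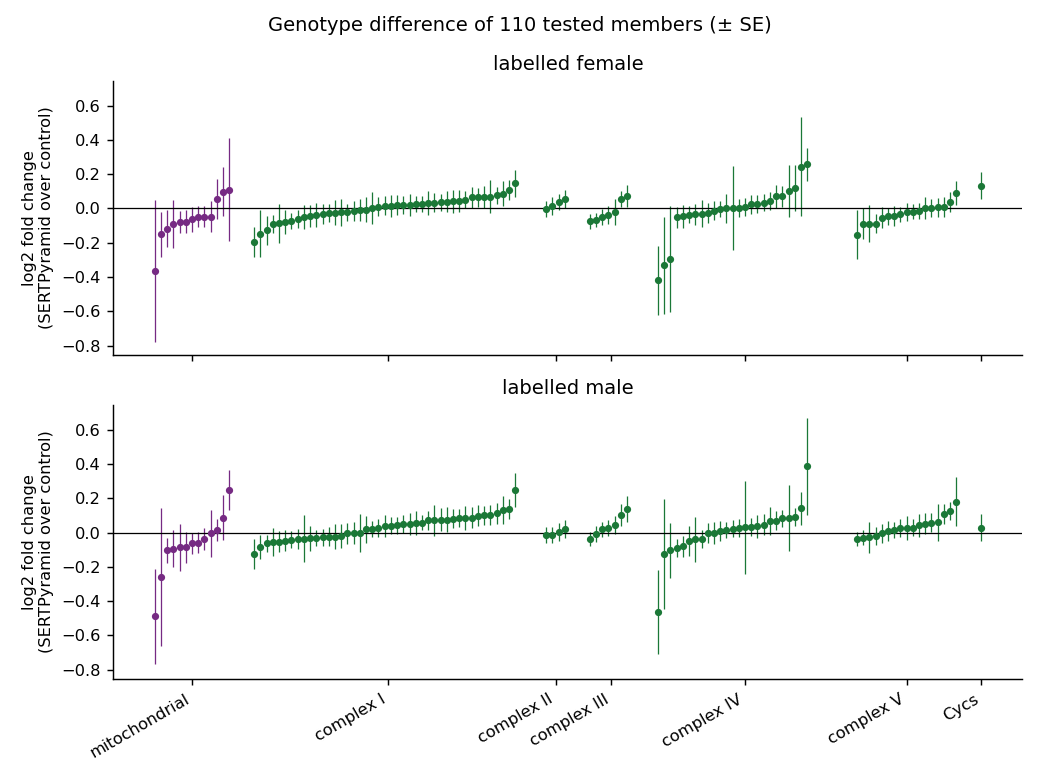
Log2 fold change, SERTPyramid over control, with its SE for each of the 110 tested genes, ordered within the mitochondrial group and each nuclear complex; upper plot labelled female, lower plot labelled male. The median of the 97 nuclear values is 0.0012 for labelled female and 0.03 for labelled male. That of the 13 mitochondrial values is -0.06 in both, with 10 of the 13 below 0. The widest bars belong to the low genes, and no gene passed the adjusted threshold.

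Among complex I genes, Ndufb4, an accessory subunit, was the nuclear member with the smallest p among labelled-male libraries. It had 9.39, 7.48 and 9.04 CPM in the controls and 10.3, 9.72 and 10.99 in SERTPyramid libraries. Its 3 SERTPyramid libraries were all above the controls, and its log2 fold change was 0.25 ± 0.10 (SE, edgeR adjusted p = 0.999). Ndufs7, a core subunit that carries the last iron-sulfur cluster before quinone, had 66.5, 57.5 and 63.8 CPM in these controls and 65.5, 67.6 and 75.4 in SERTPyramid, which overlapped, with a log2 fold change of 0.14 ± 0.06 (edgeR adjusted p = 0.999). Averaged over labelled sexes, Ndufs7 was at 0.10 ± 0.04 and Ndufb4 at 0.16 ± 0.07 (edgeR adjusted p = 0.756 for both). Ndufb10 and Ndufb11, accessory subunits of the membrane arm, were among the 4 nuclear members with the smallest interaction p, at -0.15 ± 0.07 and 0.14 ± 0.07 (edgeR adjusted p = 0.999 for both).

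Assembly factors of complex I were also among the smallest p-values. Ndufaf1, which acts on the membrane arm, had 14.7, 12.9 and 12.8 CPM in labelled-female controls and 12.9, 11.01 and 11.7 in SERTPyramid libraries. Its groups overlapped in CPM and did not on the TMM-normalised scale, with a log2 fold change of -0.20 ± 0.09 among labelled-female libraries and -0.16 ± 0.06 averaged (edgeR adjusted p = 0.591 and 0.756). Ndufaf3, a factor of early assembly steps, was at 0.15 ± 0.08 among labelled-female libraries (edgeR adjusted p = 0.672). Ndufaf2, a late factor, had an interaction value of -0.26 ± 0.12 (edgeR adjusted p = 0.999).

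In complex IV, Cox11, which delivers copper to the catalytic subunit, had the smallest p among labelled-female libraries. It had 6.91, 7.70 and 7.98 CPM in labelled-female controls and 8.28, 9.64 and 9.44 in SERTPyramid, then 8.001, 8.07 and 8.08 in labelled-male controls and 9.53, 8.77 and 8.62 in SERTPyramid libraries. All 3 SERTPyramid libraries were above all 3 controls in both labelled sexes. Of all genes tested, 9.5% did so among labelled-female and 3.67% among labelled-male libraries. The share of genes that did so in both was not counted. The log2 fold change was 0.26 ± 0.10 among labelled-female libraries and 0.20 ± 0.07 averaged (edgeR adjusted p = 0.558 and 0.756). Of the exon length of Cox11, 48.3% overlaps Tom1l1, the kit does not mark strand, and reads of the overlap cannot be assigned to one of them.

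Cox17, which carries copper into the same assembly line, had 3.47, 3.15 and 3.20 CPM in labelled-female controls and 2.80, 2.28 and 2.33 in SERTPyramid libraries, without overlap, at -0.42 ± 0.20 (edgeR adjusted p = 0.629). In the labelled-male groups it spanned 2.83 to 3.76 and 2.19 to 4.14 CPM, which overlapped. Cox6a2, the muscle isoform, was at -0.46 ± 0.24 among labelled-male libraries (edgeR adjusted p = 0.999), from a mean level of 1.29 CPM.

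In complex V, Atp5j, coupling factor 6 of the stalk, had the smallest interaction p among nuclear members. It had 73.6, 76.7 and 75.03 CPM in labelled-female controls and 74.8, 68.6 and 71.1 in SERTPyramid libraries, which overlapped in CPM but not on the TMM-normalised scale. It had 81.1, 70.5 and 74.4 CPM in labelled-male controls and 80.5, 80.3 and 87.5 in SERTPyramid libraries, where the groups overlapped. The interaction value was -0.21 ± 0.07 (edgeR adjusted p = 0.999), and the labelled-male fold change was 0.12 ± 0.05 (edgeR adjusted p = 0.999). Cycs was at 0.13 ± 0.08 among labelled-female libraries (edgeR adjusted p = 0.707).

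Among the mitochondrial genes the smallest p-values were reached by mt-Nd4 and mt-Cytb among labelled-female libraries, both at -0.08 with SEs of 0.06 and 0.07 (edgeR adjusted p = 0.803 and 0.807). Among labelled-male libraries they were reached by mt-Co3 at 0.25 ± 0.12 and mt-Nd4l at -0.49 ± 0.28 (edgeR adjusted p = 0.999 for both). mt-Co3 had 6.13, 5.68 and 5.39 CPM in labelled-male controls and 6.75, 6.41 and 7.41 in SERTPyramid libraries, without overlap. Both genes are among those with nearly all windows in a nuclear copy, so these values may be those of gene and copy together. Averaged, mt-Co3 was at 0.15 ± 0.08 and mt-Nd2 at -0.08 ± 0.05 (edgeR adjusted p = 0.759 and 0.775). The interaction values of mt-Nd4l and mt-Atp6 were 0.60 ± 0.41 and -0.24 ± 0.19 (edgeR adjusted p = 0.999 for both).

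The shares of members whose groups did not overlap are given beside those of all genes tested, with no test of the difference. Among labelled-female libraries, 6 members (5.45%) had all SERTPyramid libraries above all controls against 9.5% of genes tested, and 10 members (9.09%) had all below against 9.38%. Among labelled-male libraries, 8 members (7.27%) were above against 3.67%, and 1 member, Cox16 (0.909%), was below against 3.26%. Those above included mt-Co3, Ndufb4 and Cox11, and this labelled-male group holds the library in which nuclear members were highest.

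Genes around the chain gave 0 calls in each of the 4 comparisons. Of 38 assembly factors outside the symbol rule, 34 were tested, with 2 higher and 1 lower at an unadjusted p under 0.05 among labelled-female libraries and 1 higher and 0 lower among labelled-male libraries. Their median log2 fold changes were -0.0063 and 0.03, and Sco2 and Pet117 had 0 counts in every library. Of 31 genes for copying mitochondrial DNA and handling its RNA, 29 were tested, with 3 higher and 1 lower among labelled-female and 0 either way among labelled-male libraries. The 9 nuclear regulators had 0 higher and 1 lower among labelled-female libraries and 0 either way among labelled-male ones. The 19 citrate cycle and pyruvate genes had 0 higher and 2 lower, then 0 either way, and the 18 other mitochondrial protein genes 1 higher and 0 lower, then 0 either way. The summed level of the 2 mitochondrial ribosomal RNA genes was 1555 to 1857 CPM.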

How the data were processed

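The authors deposited 1 table of raw read counts per gene for 12 libraries; per the labels' protocols, total RNA was made into mRNA libraries with the Illumina TruSeq RNA kit V2. The build mm10 is named in the submitters' processing notes; the aligner, counting settings and annotation are not stated there, in the labels or in the table. Symbols, gene types and exons came from GENCODE M21 and covered 52401 of 52634 IDs; promoters came from RefSeq. All 52634 rows name a gene.

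Counts were tested with edgeR 4.0.16 (R 4.3.3): TMM scaling, filterByExpr, robust quasi-likelihood fit of 4 groups, no block, Benjamini-Hochberg adjustment over all 17631 genes tested. SEs are the log2 fold change divided by the square root of F. The procedure was tested on simulated data. Nothing says that libraries came from separate litters, so the spread behind each p-value is that between these pools and may be technical. Alternatives were DESeq2 1.42.0, RLE scaling, library sizes without mitochondrial genes, other filters, limma 3.58.1 voom, a replicate block, and leaving out libraries. Replicate pairs differed by more than sampling noise.

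The members, lists and comparisons were chosen with earlier results of these data known. Genes named are the mitochondrial members, the 2 highest and 2 lowest nuclear members per exon length in each complex, the 4 nuclear and 2 mitochondrial members with the smallest p in each comparison, the isoform families, complex II, Cycs, Atpif1 and members that did not pass the filter; Uqcrc2, Atp5d, Cox7a2l and some genes without overlap between groups were named after their values were seen.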

Additional observations from a re-analysis of the deposited data

How the results depend on the processing

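No member was called under any of the 23 settings. It follows that 490 of 490 recomputed results of the genes named for small p-values stayed uncalled, which is no further evidence. Their fold changes did move: that of mt-Nd4l among labelled-male libraries ran from -0.77 to -0.19 when single libraries were left out. The number of all genes called moved from 0: among labelled-female libraries to 1 with DESeq2, 103 without a filter on low counts, 415 when only the 6 labelled-female libraries were fitted and 0 to 2 when single libraries were left out; among labelled-male libraries to 5 without the filter; averaged over labelled sexes to 66 without the filter and 0 to 144 with single libraries left out, where 144 came without SERTPyramid male replicate 2; and for the interaction to 1 with DESeq2 and 14 without the filter. The cause of these moves was not tested. Over 18 same-numbered pairs of libraries, correlations of deviations ran from -0.23 to 0.23, 2 were above 0.1, and 3 libraries correlated best with their own number. Deviations within groups of 3 libraries cannot decide whether the replicate numbers pair the libraries. With the replicate number as a block, 0 genes and 0 members were called in each comparison, and the labelled-female nuclear and mitochondrial medians were 0.00096 and -0.06. Leaving out single libraries moved the labelled-male mitochondrial median between -0.11 and 0.03 and the nuclear one between -0.0027 and 0.05. Depth limits the low members: 3 counts are 0.118 to 0.160 CPM, against a mean of 0.726 CPM for mt-Nd3 and 0.783 for Cox7a1.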

Other observations

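Nuclear copies of mitochondrial genes are not members of the chain, but 2 of them had a single high library. Gm10925, the copy of mt-Atp6 on chromosome 1, had 778 counts in SERTPyramid female replicate 1 and 175 to 265 in each of the other libraries, while mt-Atp6 itself had 4.65 CPM there, inside its range of 4.27 to 5.94. Gm29216, a partial copy of mt-Co1, had 529 counts in control male replicate 3 and 121 to 236 in each of the others, while mt-Co1 had 5783 CPM there, inside its range. Both were chosen after their values were seen.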
